A study of Mus musculus with 3 samples.

Results

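The genes described here are 40 genes of DNA replication and S phase, the list in wide use for scoring S phase in single-cell data, sorted into 6 roles: 8 genes of origin licensing and the replicative helicase, 8 of synthesis at the fork, 3 of nucleotide supply, 8 of fork checkpoint and repair, 10 of chromatin and histone supply and 3 of S phase entry and its control. All 40 symbols are among the 14721 genes of the count table, and all 40 had a mean of at least 5 unique molecular identifiers (UMIs) per 1000000 UMIs (CPM) in every pair of libraries. They were chosen with earlier results of these data known.

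The cells were mouse bone marrow cells sorted as LSK: they lack markers of mature lineages, carry Sca-1 and Kit, and include blood stem cells with their multipotent progeny. The series has 3 single-cell RNA libraries, 1 per genotype: WT, labelled Spop(+/+) Myd88 (+/+), KO, labelled Spop(D/D) Myd88(+/+), and DKO, labelled Spop(D/D) Myd88(-/-). Spop encodes a substrate adaptor of a cullin 3 ubiquitin ligase, and Myd88 an adaptor that relays signals from Toll-like receptors and from the receptor of interleukin-1. The comparisons KO with WT, DKO with KO and DKO with WT set the deletion of Spop and the added loss of Myd88 side by side. The labels give neither the age or number of mice, nor how the deletion was made, nor any treatment.

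The KO and DKO libraries share the Spop deletion, and KO and WT share intact Myd88. With 1 library per genotype there is no replicate and no test between genotypes. Each 95% interval covers counting error only. A difference outside it can still be a difference between libraries or mice, and fewer cells in S phase and less RNA per cell cannot be told apart in a library's sum.

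The table holds 8147 WT, 4920 KO and 8184 DKO cells, with 85700749, 101393024 and 109920419 UMIs and a median of 9245, 17319 and 12404.5 UMIs per cell. The libraries share 46 (WT and KO), 54 (KO and DKO) and 83 (WT and DKO) cell barcodes. Kit, the receptor of the sort, was at 94.8, 41.5 and 65.9 CPM in WT, KO and DKO, and Ly6a, which encodes Sca-1, at 90.4, 85.1 and 89.5 CPM. Spop was at 70.7, 63.1 and 77.1 CPM. The labels do not say which exons are deleted, so 3' counts do not check that label. Myd88 was at 13.7, 25.8 and 4.47 CPM. Xist, expressed from the inactive X chromosome, was at 1537 CPM in DKO against 0.187 in WT and 0 in KO, so sex is tied to genotype in these libraries. Summed markers of differentiated lineages also differed between libraries. The 11 neutrophil progenitor markers summed to 1538, 8662 and 2732 CPM in WT, KO and DKO, the 12 erythroid markers to 659, 1498 and 854 CPM, and the 10 B lineage markers to 883, 42.1 and 63.8 CPM, with 2 of the last at 0 in KO.

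DNA replication begins at origins, where the Mcm helicase is loaded in G1 and joined by Cdc45 and the GINS complex to form the active helicase. DNA polymerase alpha and its primase start each strand, and replication factor C loads the Pcna clamp for the polymerases that extend it. Ribonucleotide reductase and thymidylate synthase make the nucleotides, and histone chaperones rebuild chromatin behind the fork. Many of these genes are transcribed at the G1 to S transition by E2F factors, and most haematopoietic stem cells are quiescent while their progeny divide.

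Promoter sequence gives one feature of these genes that the list does not use. Of the 40 genes, 30 had an entry in the RefSeq promoter table (GRCm38.p6). In the 250 bases before the start site, 9 of the 30 (30%) held an E2F-type octamer, here TTTCCCGC, TTTCGCGC, TTTGCCGC or TTTGGCGC on either strand. Of the 10731 genes of the count table with a promoter entry, 403 (3.76%) held one. The 9 were Mcm5, Mcm6, Cdc6, Pola1, Uhrf1, Hells, Cdca7, Casp8ap2 and Dtl. The share was 13 of 57 (22.8%) for other replication genes and 3 of 47 (6.38%) for G2 and M phase genes. The sequence CCAAT was in 21 of 30 (70%) against 40.2% of all genes, 49.1% of other replication genes and 76.6% of G2 and M phase genes. The sequence TTTGAA, the letters of the CHR element of mitotic genes, was in 6 of 30 (20%) against 13.1% of all genes and 42.6% of the G2 and M phase genes. A match describes letters in this window and is not evidence of binding.

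Windows of 120 bases are printed for 4 genes of different roles, with the octamers in capitals, because they show how the motif sits in promoters of genes whose levels are followed below. Each is written 5' to 3' in the direction of the gene, and all are on GRCm38.p6. Mcm6 (chr1:128359706-128359825, minus strand) holds 3 octamers, of which 2 overlap. The others hold 1 each: Pola1 (chrX:93632234-93632353, minus strand), Cdca7 (chr2:72476088-72476207, plus strand) and Dtl (chr1:191575545-191575664, minus strand).
Mcm6: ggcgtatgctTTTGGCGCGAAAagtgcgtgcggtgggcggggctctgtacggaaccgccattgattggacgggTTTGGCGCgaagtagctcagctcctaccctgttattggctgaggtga
Pola1: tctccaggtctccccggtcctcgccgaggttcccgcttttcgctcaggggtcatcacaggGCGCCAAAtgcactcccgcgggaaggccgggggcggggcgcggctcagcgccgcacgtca
Cdca7: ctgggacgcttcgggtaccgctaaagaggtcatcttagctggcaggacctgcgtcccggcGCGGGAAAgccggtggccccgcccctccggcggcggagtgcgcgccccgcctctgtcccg
Dtl: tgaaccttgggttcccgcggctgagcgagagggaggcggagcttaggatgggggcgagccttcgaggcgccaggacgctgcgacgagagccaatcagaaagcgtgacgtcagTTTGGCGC
The octamers begin 110, 106 and 47 bases before the start in Mcm6, 138 in Pola1, 71 in Cdca7 and 8 in Dtl.

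Summed over the 40 genes, the level was lowest in WT. It was 3007 CPM (95% interval 2995 to 3018.5) in WT, 3276 (3265 to 3287) in KO and 3411 (3400.4 to 3422) in DKO. The ratio was 1.09 (1.08 to 1.10) for KO over WT, 1.04 (1.04 to 1.05) for DKO over KO and 1.13 (1.13 to 1.14) for DKO over WT. When each cell was thinned to 5500 UMIs, so that every cell weighs the same, the levels were 2691 CPM (2675 to 2707) in WT, 3112 (3091 to 3133) in KO and 3111 (3094 to 3127) in DKO. The KO and DKO intervals then overlapped. Scaling bears on the order of KO and DKO: with edgeR's TMM factors DKO over KO was 0.91, and with median-of-ratios factors also 0.91, while KO over WT was 1.21 and 1.22 and DKO over WT 1.10 and 1.11.

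Gene by gene, the ratios of the 40 genes were set beside those of all genes measured, without matching for level. The median log2 ratio of the 40 genes was 0.10 for KO over WT (all genes -0.08), 0.03 for DKO over KO (all genes 0.13) and 0.18 for DKO over WT (all genes 0.06). The median thus stood 0.17 above that of all genes in KO over WT, 0.10 below it in DKO over KO and 0.12 above it in DKO over WT. TMM scaling moved the median of all genes by more than 0.1 in the first pair, from -0.08 to 0.08, and in the second pair, from 0.13 to -0.06.

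In KO over WT, 2 of the 40 genes were at least 1.5-fold higher, against 7.77% of all genes measured, and 0 were at least 1.5-fold lower, against 17.1%. They were Rrm2 and E2f8. In DKO over KO, 3 were higher (Dscc1, Chaf1b and Prim1), against 17.9%, and 2 lower (Rrm2 and Ccne2), against 6.32%. In DKO over WT, 0 were higher, against 3.62%, and 1 was lower (Ccne2), against 3.55%. With TMM scaling, 7 genes were at least 1.5-fold higher in KO than in WT, against 13.8% of all genes at that scaling, the other five being Gmnn, Fen1, Rrm1, Blm and Nasp. In DKO over KO, TMM scaling left 2 higher (Dscc1 and Chaf1b), against 10.7%, and 3 lower (Rrm2, Ccne2 and Hells), against 12.5%. At equal depth per cell, E2f8 (1.84), Blm (1.77) and Rrm2 (1.73) passed 1.5-fold in KO over WT. Rrm1 (1.51), Gmnn (1.51) and Nasp (1.502) passed it narrowly. For DKO over KO at that depth, Dscc1 (1.91) and Chaf1b (1.68) stayed higher and Rrm2 (0.564) and Ccne2 (0.596) lower, with Prim1 at 1.46. For DKO over WT, Dscc1 reached 1.59, and Ccne2 at 0.672 fell short of the limit. No share of all genes is given for whole libraries at that depth. The comparisons share libraries in pairs, so their values are given side by side.

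**Figure D1:**
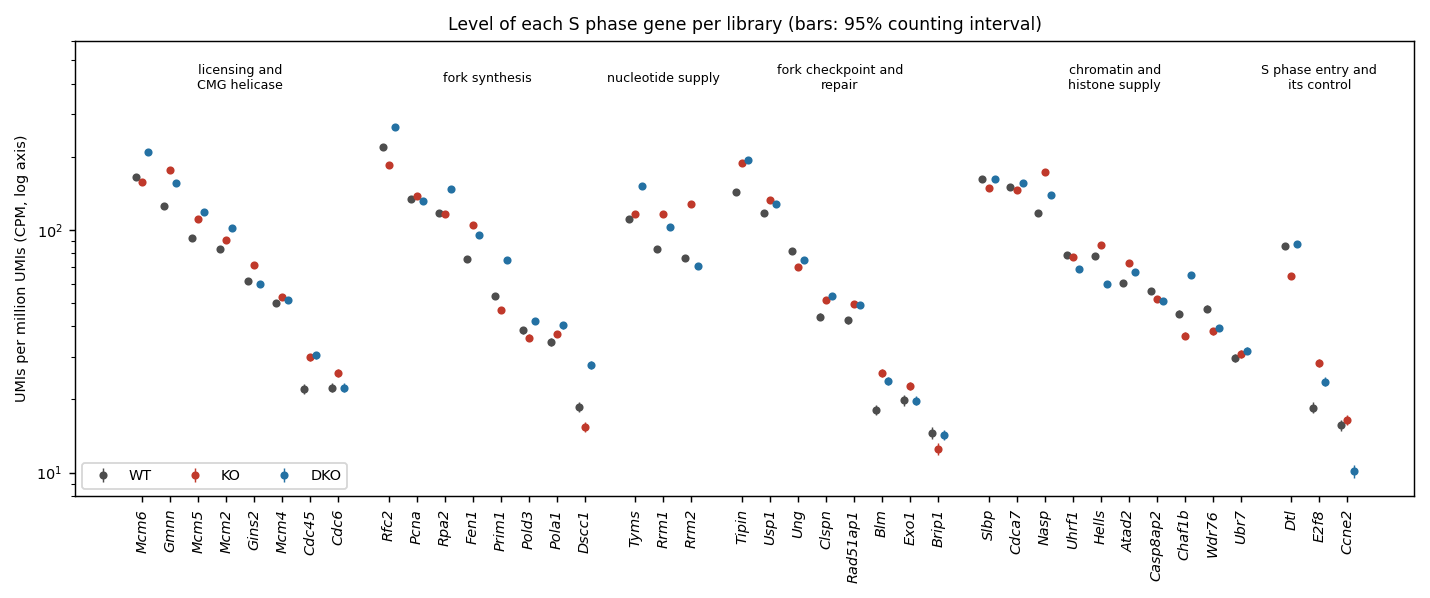
Level of each of the 40 genes in CPM (log axis) in the WT, KO and DKO libraries, grouped by role; bars are 95% counting intervals and are mostly smaller than the points. Rrm2 stands at 127 CPM in KO against 76.8 in WT and 70.6 in DKO, and Rfc2, Prim1, Dscc1 and Chaf1b are lowest in KO and highest in DKO.

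The helicase and licensing genes summed to 621, 715 and 749 CPM in WT, KO and DKO. Mcm6, a subunit of the replicative helicase, was at 164 CPM in WT against 157 in KO and 208 in DKO, a ratio of 1.33 (1.30 to 1.35) for DKO over KO. Gmnn encodes geminin, the inhibitor of relicensing that accumulates through S and G2. It was at 125, 176 and 156 CPM, so that KO stood 1.41-fold (1.38 to 1.45) above WT. The other Mcm genes of the list were lowest in WT: Mcm2 was at 83.4 CPM in WT and 102 in DKO and Mcm5 at 92.8 and 118, while Mcm4 stayed between 49.9 and 53.0 in the 3 libraries. Cdc45, a partner of the Mcm ring in the active helicase, was at 22.1 CPM in WT against 29.8 in KO and 30.4 in DKO. Gins2, of the GINS complex, and Cdc6, the loader of the helicase, were highest in KO, at 71.8 and 25.7 CPM.

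The fork synthesis genes summed to 691, 679 and 823 CPM, with a KO over WT ratio of 0.98 and a DKO over KO ratio of 1.21. At equal depth per cell these ratios were 1.03 (1.01 to 1.05) and 1.17 (1.15 to 1.19). Rfc2, a subunit of the clamp loader, was at 219 CPM in WT, lower in KO (185) and higher in DKO (264). Its ratio was 0.84 (0.83 to 0.86) for KO over WT and 1.43 (1.40 to 1.45) for DKO over KO. Pcna, the sliding clamp, was at 134, 137 and 131 CPM, within 1.05-fold over the 3 libraries. Prim1, the catalytic subunit of primase, was at 53.4, 46.7 and 75.4 CPM, 1.62-fold (1.56 to 1.68) higher in DKO than in KO, or 1.46-fold at equal depth per cell. Dscc1, of the alternative clamp loader that serves sister chromatid cohesion, was at 18.6, 15.4 and 27.8 CPM, 1.80-fold (1.69 to 1.91) higher in DKO than in KO. Both were also higher in DKO than in WT, by 1.41-fold and 1.49-fold. Fen1, the nuclease that trims Okazaki fragments, ran the other way between WT and KO, at 75.6 and 105 CPM, and was at 95.4 in DKO. Rpa2, of the single-strand binding complex, was at 117 and 116 CPM in WT and KO and 147 in DKO. Pola1, of DNA polymerase alpha, and Pold3, of polymerase delta, stayed between 34.5 and 42.1 CPM in the 3 libraries.

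The nucleotide supply genes were the role with the largest KO over WT ratio, 1.33 (1.30 to 1.35), with sums of 271, 359 and 324 CPM. Rrm2, the regulatory subunit of ribonucleotide reductase, was at 127 CPM in KO against 76.8 in WT and 70.6 in DKO. KO alone was high, 1.66-fold (1.61 to 1.71) above WT, and DKO was at 0.55 (0.54 to 0.57) of KO. Rrm1, the catalytic subunit of the same enzyme, was at 83.3, 116 and 102 CPM, 1.39-fold (1.35 to 1.44) higher in KO than in WT. Tyms, thymidylate synthase, was instead highest in DKO, at 151 CPM against 111 in WT and 116 in KO. The 3 genes of this role thus did not keep a common order over the libraries.

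Among fork checkpoint and repair genes, the sums were 481, 553 and 556 CPM. Tipin, which stabilises stalled forks, was at 143, 188 and 193 CPM, and Usp1, which removes ubiquitin from Pcna and Fancd2, at 117, 133 and 128. Tipin in KO stood 1.31-fold (1.28 to 1.34) above WT, and DKO over KO was 1.03. Blm, a helicase of recombination, had a KO over WT ratio of 1.41, at 25.6 against 18.1 CPM. Ung, the uracil glycosylase, was at 81.8 CPM in WT against 70.2 in KO and 74.8 in DKO. At equal depth per cell its KO over WT ratio was 0.96 (0.91 to 1.02). For Clspn, Exo1, Brip1 and Rad51ap1 the ratios of all pairs lay between 0.86 and 1.22 in the library sums. At equal depth per cell KO over WT was 1.43 (1.33 to 1.54) for Clspn and 1.27 (1.18 to 1.37) for Rad51ap1. Exo1 was then at 1.13 and Brip1 at 0.89.

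The chromatin and histone supply genes summed to 824, 862 and 838 CPM, with opposite orders inside the role. Slbp, which binds the stem-loop of histone messages, was at 161, 148 and 162 CPM in WT, KO and DKO. At equal depth per cell its KO over WT ratio was 1.02 (0.98 to 1.06). Cdca7, a partner of the remodeller Hells, was at 150, 146 and 155. Nasp, a histone H1 and H3 chaperone, was highest in KO, at 117, 173 and 138 CPM, a ratio of 1.48 (1.44 to 1.52) over WT. Chaf1b, of chromatin assembly factor 1, was lowest in KO, at 45.1, 36.6 and 65.0 CPM, and DKO was 1.78-fold (1.71 to 1.85) above KO. Hells was at 77.9, 86.3 and 59.9 CPM, 0.69 (0.67 to 0.72) of KO in DKO. Wdr76 was at 47.3, 38.2 and 39.4 CPM, with ratios to WT of 0.81 and 0.83. At equal depth per cell the KO over WT ratio of Wdr76 was 0.99 (0.92 to 1.07). The rest (Uhrf1, Atad2, Casp8ap2 and Ubr7) had ratios between 0.87 and 1.22 in all pairs of library sums. At equal depth per cell Atad2 was at 1.36 (1.27 to 1.44) in KO over WT. Uhrf1, Casp8ap2 and Ubr7 were then at 1.08, 1.04 and 1.08.

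Of the genes of S phase entry and its control, Dtl was lowest in KO and Ccne2 in DKO. Dtl, the receptor that directs Cdt1 to destruction on chromatin-bound Pcna, was at 85.8, 64.3 and 87.5 CPM, a KO over WT ratio of 0.75 (0.73 to 0.78). E2f8, an atypical E2F that represses transcription, was at 18.5, 28.3 and 23.7 CPM, 1.53-fold (1.44 to 1.63) higher in KO than in WT. Ccne2, cyclin E2, was at 15.7, 16.4 and 10.1 CPM, so that DKO was at 0.62 (0.57 to 0.67) of KO and 0.65 (0.60 to 0.70) of WT.

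Each gene's share of the summed UMIs of the 40 genes does not depend on how the libraries are scaled, and its ratio is the CPM ratio divided by 1 value per pair. By this share Rrm2 in KO was 1.52-fold its WT value, E2f8 1.40-fold and Nasp 1.36-fold. Dtl was at 0.69, and Wdr76 and Chaf1b at 0.74 of their WT shares. Between DKO and KO, Dscc1, Chaf1b and Prim1 took 1.73-fold, 1.71-fold and 1.55-fold larger shares, and Rrm2, Ccne2 and Hells fell to 0.53, 0.59 and 0.67.

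**Figure D2:**
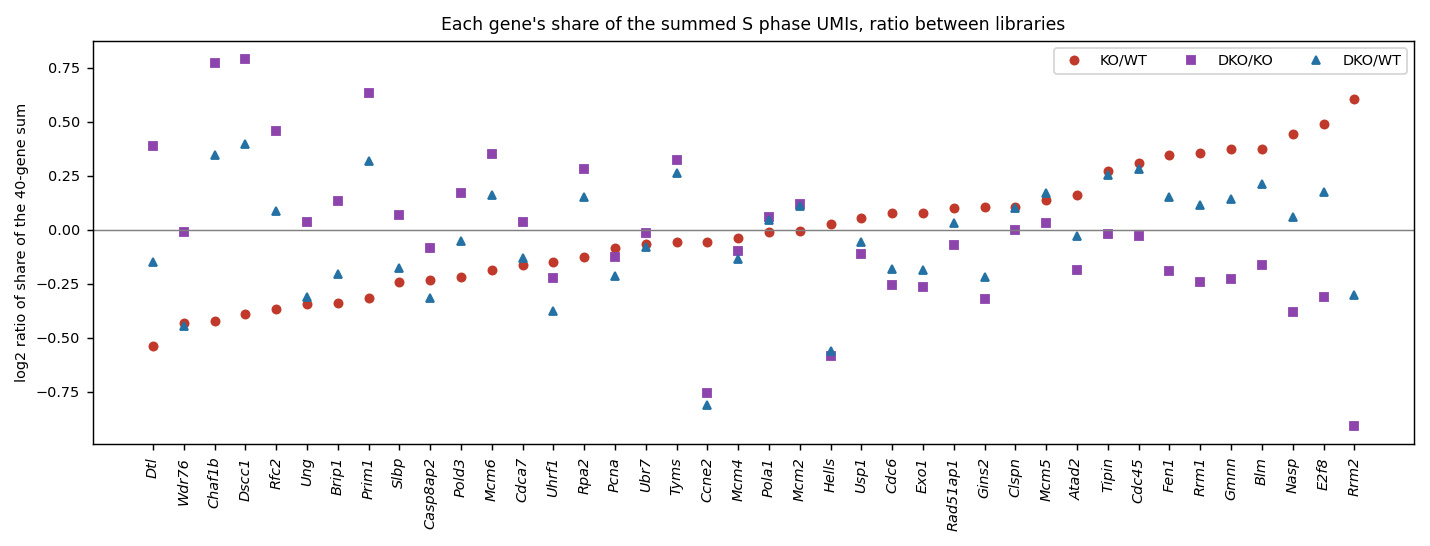
Log2 ratio of each gene's share of the summed UMIs of the 40 genes for KO over WT (circles), DKO over KO (squares) and DKO over WT (triangles), ordered by the first. Rrm2 stands highest in KO over WT and lowest in DKO over KO, and Dtl stands at the other end of the KO over WT order.

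The per-cell distribution was then compared at equal depth. Each cell was thinned to 5500 UMIs, and 683 WT cells, 178 DKO cells and 0 KO cells with fewer were left out. The median cell held 12 UMIs of the 40 genes in WT, 17 in KO and 15 in DKO, and the 5th and 95th percentiles were 2 and 35, 4 and 32, and 3 and 37. The threshold of 1% of UMIs chosen first was passed by 6 WT, 0 KO and 2 DKO cells and could not serve; the 0 of 4920 KO cells allows a share of up to 0.061%. Thresholds of 0.4% (over 22 UMIs) and 0.1% (at most 5 UMIs) were chosen after the distribution was seen. They cut a continuous range rather than a cell type, and 929 WT, 1092 KO and 1110 DKO cells lay between 20 and 25 UMIs.

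The share over 0.4% was 25.6% (24.6 to 26.6) in WT, 26.7% (25.5 to 28.0) in KO and 32.3% (31.3 to 33.4) in DKO. Without thinning, these shares were 26.2%, 28.9% and 33.5%. The order of KO depends on the threshold. The share over 0.3% was 38.5% in WT, 51.4% in KO and 46.4% in DKO, and that over 0.5% was 16.0%, 11.6% and 20.8%. At the low end, the share at or below 0.1% was 8.31% in KO against 25.2% in WT and 16.5% in DKO. The KO library thus held the smallest share both at or below 0.1% and over 0.5%. Cells over 0.4% had more UMIs before thinning than cells at or below 0.1%, with medians of 13379 and 7662 in WT, 18899 and 10205 in KO and 15451.5 and 8695.5 in DKO.

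**Figure D3:**
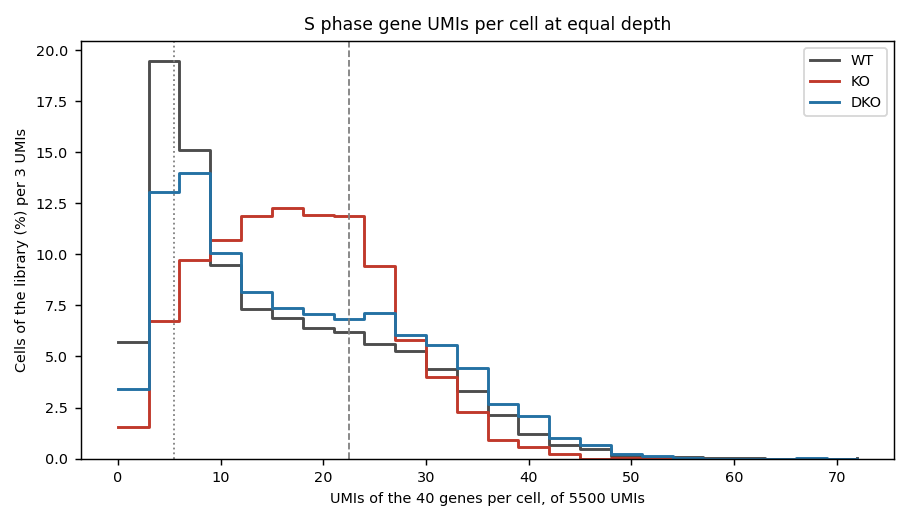
Share of each library's cells (percent per bin of 3 UMIs) by the number of UMIs of the 40 genes per cell, each cell thinned to 5500 UMIs; the dotted line lies above 5 UMIs (0.1%) and the dashed line above 22 UMIs (0.4%). WT and DKO pile up at low values with a long upper tail, and KO has a single broad mode around its median of 17.

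The S phase genes were set beside 55 G2 and M phase genes with the same 0.4% limit. Cells over the limit for S phase genes alone made up 9.23% in WT, 8.27% in KO and 12.4% in DKO. Cells over both limits were 16.3%, 18.5% and 19.9%. Cells over the G2 and M limit alone stood at 43.9% (42.5 to 45.3) in KO against 16.7% (15.8 to 17.5) in WT and 21.05% (20.2 to 22.0) in DKO. Cells over neither limit were 29.4% in KO against 57.8% and 46.6% in WT and DKO. The limit of 22 UMIs lay below the KO median of 30 UMIs of the 55 genes and above the medians of 13 in WT and 17 in DKO. The 95th percentiles were 84, 80 and 92 UMIs in WT, KO and DKO, lowest in KO. No other limit was tried for the G2 and M phase genes. These are ranges of summed transcripts and not measured cell cycle phases.

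**Figure D4:**
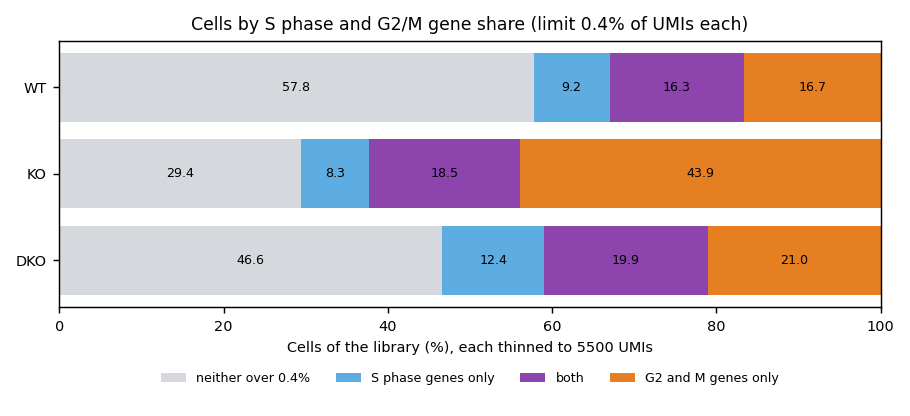
Percent of each library's cells over 0.4% of UMIs for the 40 S phase genes alone, for 55 G2 and M phase genes alone, for both or for neither, each cell thinned to 5500 UMIs. Cells over the S phase limit alone are 9.23% in WT and 8.27% in KO, while 43.9% of KO cells are over the G2 and M limit alone.

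The 40 genes did not all follow the same course across these ranges. The fold between cells over 0.4% and cells at or below 0.1%, scored on the other 39 genes, had a median of 6.84 in WT, 4.62 in KO and 6.58 in DKO. It was smallest in KO for 36 of the 40 genes. The cells are chosen by the genes that are described, so these folds rank the genes and are no test. Rrm2 had the largest fold in WT and DKO, 48.7 and 34.0, but 12.9 in KO, where Ccne2 led with 35.5. Ubr7, a ubiquitin ligase of histone H2B, had the smallest fold in all libraries, 2.08, 1.66 and 1.82, and Rfc2 also stayed low, at 2.14, 1.83 and 2.33.

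Among cells over the S phase limit, genes differed in whether they were higher without or with G2 and M transcripts. In all 3 libraries, 21 genes were higher with G2 and M transcripts, 7 were lower and 12 were mixed. Any ratio above or below 1 was counted, without a minimum fold, and Mcm5 in KO was at 1.001. No share of all genes was computed for this split, so the counts describe the list only. Ung had the lowest ratio in each library, with 237 CPM without and 122 with them in WT, 191 and 100.1 in KO, and 209 and 99.1 in DKO. Mcm2, Mcm4, Mcm6 and Cdca7 were also lower, with ratios from 0.75 to 0.90 over the 3 libraries, and the other two were Rfc2 and Hells. Rrm2 had the steepest course in the other direction, from 68.1 to 228 CPM in WT, 118 to 191 in KO and 62.2 to 181 in DKO. Tyms (2.09, 1.51 and 1.957), E2f8 (2.27, 1.44 and 2.31) and Ccne2 (2.16, 1.32 and 1.52) followed, and Clspn and Brip1 were at 1.73 and 1.74 in WT, 1.18 and 1.20 in KO and 1.956 and 1.959 in DKO. Ung, Mcm2, Mcm4 and Mcm6 were thus higher in cells below the G2 and M limit, and Rrm2 and Tyms in cells over it.

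Non-member genes were ranked by their lowest ratio over the 3 libraries between cells over 0.4% and all other cells, among 2211 genes with at least 50 CPM in the former. Of the first 10, 7 are on the list of other replication genes, and Tk1, E2f1, Lig1, 2810417H13Rik, Fbxo5, Orc6, Rfc3 and Cenph were among the 10. Tk1, thymidine kinase, was 5.89-fold, 2.29-fold and 5.95-fold higher in WT, KO and DKO. The gene 2810417H13Rik reached 7.53-fold in WT and 1.997-fold in KO. At the other end stood Wfdc17 (0.39, 0.56 and 0.44) and the transcription factor gene Sox4 (0.56, 0.62 and 0.59). These names describe which transcripts go with the summed score.

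Cell classes were described with clusters built without the S phase and G2 and M lists and without genes that go with them, a clustering chosen after the data were seen. Names rest on markers and end in -like. WT, KO and DKO cells fell largely into different clusters, and only 3 named classes held at least 50 cells in both WT and KO: lymphoid-primed-like, megakaryocyte progenitor-like and monocyte-dendritic progenitor-like. Among classes and clusters with at least 50 cells in a library, the highest summed level in WT was that of B lineage-like cells, at 4711 CPM (4634 to 4789), where 64.4% of 553 cells were over 0.4%. It was the highest of the 10 classes or clusters of WT for 32 of the 40 genes. In KO the monocyte-dendritic progenitor-like cells were highest, at 3807 CPM (3740 to 3874), and first for 23 of 40 genes. In DKO the megakaryocyte progenitor-like cells were highest, at 3871 CPM (3820 to 3924), and first for 13.

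The stem cell-like class was the lowest in WT, at 2006 CPM (1963 to 2049), with 15.1% of 770 cells over 0.4%. In DKO the same class was at 2529 CPM (2470 to 2589), with 26.8% of 503 cells over 0.4%, a ratio of 1.26 (1.22 to 1.30). At least 1.5-fold higher in DKO were 10 of the 40 genes, against 8.81% of all genes in these cells, and 0 were lower, against 5.28%. Rrm2 was at 23.1 CPM in WT and 48.1 in DKO stem cell-like cells. KO held 36 such cells and was not compared. In the cells of this class the summed stem cell markers were at 3131 CPM in WT and 2699.8 in DKO, the monocyte-dendritic markers at 137 and 303 CPM, and the erythroid markers at 1141 and 1391 CPM. The part of these differences in the result was not tested. Outside this class, the unnamed cluster 6 (Vldlr, Ifitm1, Socs3) held 1576 KO cells, 32.0% of the library. Its stem cell markers, a list that includes Ifitm1 and Ly6a, summed to 3479 CPM in KO. The 40 genes were at 2912 CPM (2876 to 2948) in these KO cells, with 23.4% of them over 0.4%.

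Megakaryocyte progenitor-like cells, from 1 cluster in all libraries, gave the fullest comparison. The summed level was 3379 CPM (3307 to 3452) in 453 WT cells, 3224 (3154 to 3296) in 449 KO cells and 3871 in 1013 DKO cells. KO over WT was 0.95 (0.93 to 0.98), DKO over KO 1.20 (1.17 to 1.23) and DKO over WT 1.15 (1.12 to 1.18). Over 0.4% were 36.0%, 27.8% and 43.4% of the cells. In KO over WT, 1 gene was at least 1.5-fold higher (background 4.69%) and 2 were lower (9.06%). In DKO over KO the counts were 4 higher (11.6%) and 0 lower (4.56%), and in DKO over WT 1 higher (7.07%) and 1 lower (4.88%). Within the class, Rrm2 was at 49.4, 55.5 and 67.1 CPM, Chaf1b at 55.0, 51.4 and 79.9, Dscc1 at 16.9, 15.8 and 31.1, and Dtl at 96.7, 69.6 and 96.0. The higher Chaf1b and Dscc1 of DKO and the lower Dtl of KO were thus seen inside this class, where Rrm2 was not highest in KO. In the cells of this class the summed megakaryocyte markers were at 2012, 3675 and 2432 CPM in WT, KO and DKO and the erythroid markers at 1218, 745 and 1088 CPM, and their part in the result was not tested.

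Lymphoid-primed-like cells were low in all libraries, at 2214, 2224 and 2394 CPM, with KO over WT at 1.004 (0.94 to 1.07). Most of the 91 KO cells came from another cluster than most WT and DKO cells (cluster 10 against cluster 9). The monocyte-dendritic progenitor-like class was at 3493 CPM in 62 WT cells, 3807 in 599 KO cells and 3374 in 84 DKO cells. Its KO cells came mostly from cluster 14, led by F13a1 and Ly6c2, and those of WT and DKO from cluster 16, led by Irf8. The neutrophil progenitor markers summed to 13105 CPM in the KO cells of this class against 3657 in WT and 6015 in DKO. In KO neutrophil progenitor-like cells they summed to 15749 CPM. The monocyte-dendritic markers that name the class were lowest in its KO cells, at 1221 CPM against 1947 in WT and 2929 in DKO. The part of these marker differences in the result was not tested.

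**Figure D5:**
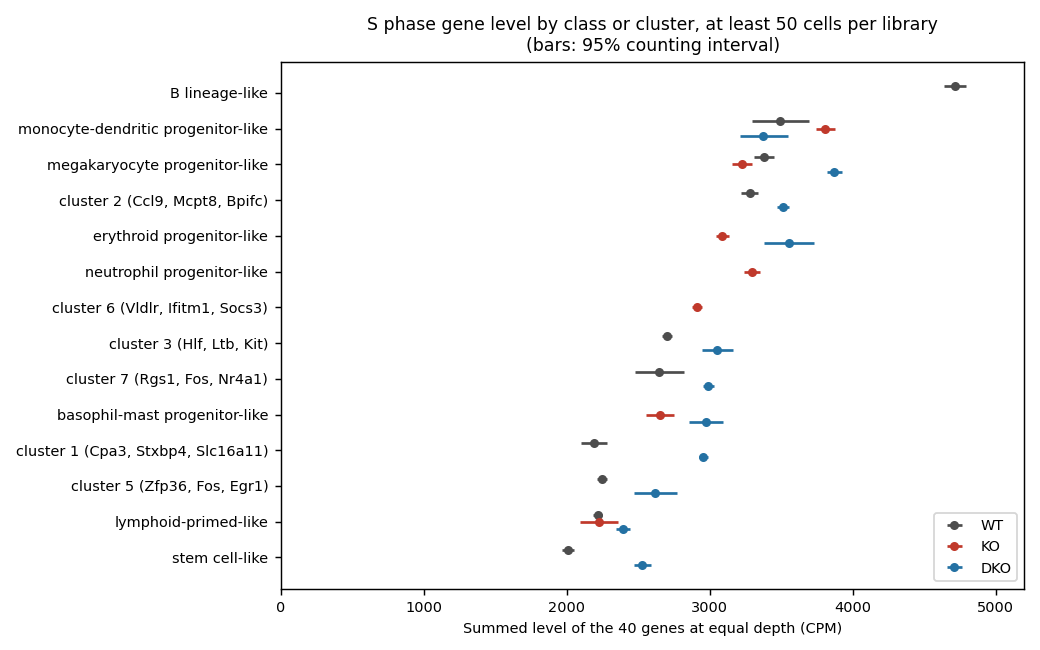
Summed level of the 40 genes (CPM at 5500 UMIs per cell) in each named class or unnamed cluster with at least 50 cells, by library; bars are 95% counting intervals. B lineage-like WT cells are highest at 4711 CPM, and stem cell-like WT cells are lowest at 2006.

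The Rrm2 level of KO was highest in 2 classes. It was 214 CPM (199 to 231) in monocyte-dendritic progenitor-like and 149 (138 to 161) in neutrophil progenitor-like KO cells, which held 26.9% and 25.1% of the Rrm2 UMIs of KO classes. It was between 39.96 and 79.8 CPM in the other KO classes. In WT it was highest in B lineage-like cells, at 265 CPM. When clusters with erythroid, neutrophil and B lineage markers were left out, 676 WT, 2095 KO and 77 DKO cells were removed. These clusters come from the first clustering, so the step took out 547 of the 599 monocyte-dendritic progenitor-like and 512 of the 802 neutrophil progenitor-like KO cells. In the cells that stayed, Rrm2 was at 51.4, 78.02 and 68.6 CPM. KO over WT was then 1.52, and DKO over KO moved from 0.55 to 0.88. Ccne2 moved likewise, from 0.62 to 0.82 for DKO over KO and from 0.65 to 0.77 for DKO over WT. Prim1 (1.61), Dscc1 (1.74) and Chaf1b (1.65) stayed above 1.5 in DKO over KO without those cells. In DKO over WT, 3 genes (Cdc45, Dscc1 and Tyms) were then at least 1.5-fold higher, against 3.33% of all genes.

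The share of cells over 0.4% was also compared at the cluster shares of WT, among clusters with at least 50 cells in both libraries. In the 3 clusters that KO and WT had in common, which covered 10.2% of KO and 14.9% of WT cells, it was 21.4% in KO and 33.8% in WT, a difference of -12.5 percentage points. With the clusters that leave out further cycle genes the difference was -8.53. DKO minus KO was 23.3 points (16.0 to 30.5) over 4 clusters, weighted in the same manner. These covered 19.7% of DKO and 14.7% of KO cells and included the same 53 KO cells. DKO minus WT was 3.18 points (1.20 to 5.16) over 12. A cluster shared by DKO and WT was led by the mitotic genes Nusap1 and Cenpf, so holding cluster shares fixed may also fix part of the cycling state. With the clusters that leave out further cycle genes these differences were 20.5 and 7.06 points. Within the 3 clusters shared by KO and WT the share was therefore lower in KO, although over all cells it was 26.7% in KO and 25.6% in WT. The share at or below 0.1% in the same 3 clusters was 12.1% in KO and 12.3% in WT. Over all cells it was 8.31% and 25.2%. With the clusters of resolutions 0.6 and 1.5, KO minus WT at or below 0.1% was -5.53 and -7.08 points.

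Another 69 replication genes, listed apart from the 40, were described in the same way, with 68 measured. They summed to 3999, 4517 and 4568 CPM, and their median log2 ratios were 0.14, 0.03 and 0.16 for KO over WT, DKO over KO and DKO over WT. At least 1.5-fold higher in KO than in WT were 2, Ccne1 (2.01-fold, 1.85 to 2.18) and Tk1 (1.54-fold), against 7.77% of all genes. Lower was 1, Tcf19 (0.59), against 17.1%. In DKO over KO, 2 were higher, Tcf19 (1.56) among them, against 17.9%. Ccne1 (0.40) and E2f2 (0.61) were lower, against 6.32%. In DKO over WT, Rfc5 (1.51) was higher, against 3.62%, and E2f2 (0.50) lower, against 3.55%. Tk1 (1.49) and Pold2 (1.48) fell just short. Dbf4, the activator of the Cdc7 kinase, was at 1.48 in KO over WT. Ccne1, the other cyclin E gene, was at 9.70, 19.5 and 7.75 CPM, high in KO alone. The remaining subunits of the Mcm ring, Mcm3 and Mcm7, were at 0.99 each in KO over WT and at 1.30 and 1.38 in DKO over KO, close to the 1.33 of Mcm6.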

How the data were processed

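Libraries were made with the Chromium Single Cell 3' v2 kit, per the labels' protocols. Tools named, per the submitters' processing notes, were bcl2fastq, Cell Ranger and Seurat, with the build mm10. Versions and roles of these tools are not given in the sources used here. The deposited table holds whole-number UMI counts, made by the authors, for cells they kept; their normalized table was not used. All 21251 cell columns carry a library prefix.

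The 40 genes, the other lists and the marker lists were chosen with earlier results of these data known. Counts were summed per library and divided by its total (CPM). Levels carry exact Poisson, shares of cells exact Clopper-Pearson and ratios exact conditional binomial 95% intervals. Xist was at 0 in KO, where 3 counts of the total are 0.0296 CPM. Genes with a pair mean of at least 5 CPM were measured. Cells were thinned without replacement to 5500 UMIs. Clusters came from scanpy 1.11.5 and leidenalg 0.10.2 (2000 variable genes without listed cycle, sex, mitochondrial, ribosomal and histone genes, 30 components, 20 neighbours, resolution 1; 21 clusters). The second clustering also left out genes that correlate with the summed lists (18 clusters). A name needed 3 markers of a list among the top 15 genes and a lead of 2, a rule set after the clusters were seen. Scrublet's automatic calls marked 0.0245%, 0.793% and 0.0489% of WT, KO and DKO cells, which was not usable; no cell was removed as a doublet. TMM factors came from edgeR 4.0.16. Calculations were tested on simulated data.

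Values in every library are given for the 2 highest members of each role and for the members with the 3 largest and the 3 smallest ratios per pair. Other replication genes are named when among the 4 largest ratios of a pair. Mcm3, Mcm7 and further members were named after their values were seen. A few further genes meeting these rules are not reported here.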

Additional observations from a re-analysis of the deposited data

Results flagged for a closer look

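Within classes, the summed level of the 40 genes did not move in one direction. For KO over WT it was 1.09 in monocyte-dendritic progenitor-like cells and 0.954 in megakaryocyte progenitor-like cells. For DKO over KO it was 0.886 in monocyte-dendritic progenitor-like cells and above 1 in the other four classes with enough cells, at 1.08 in lymphoid-primed-like, 1.20 in megakaryocyte progenitor-like, 1.15 in erythroid progenitor-like and 1.12 in basophil-mast progenitor-like cells. These results are listed because classes moved in opposite directions, with 1 library on each side. The difference between classes was not tested. In the monocyte-dendritic, erythroid and lymphoid-primed classes different clusters hold most cells of KO and of DKO.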

How the results depend on the processing

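No paired analysis was possible because each genotype has 1 library, and for the same reason no replicate could be left out. The summed ratios for KO over WT, DKO over KO and DKO over WT were 1.09, 1.04 and 1.13. They became 1.21, 0.91 and 1.10 with TMM, 1.22, 0.906 and 1.11 with median-of-ratios factors, 1.16, 0.9996 and 1.16 with equal weight per cell, and 1.10, 1.11 and 1.22 without erythroid, neutrophil and B lineage clusters. DKO over KO therefore changed direction with both scaling factors, and with equal weight per cell its interval (0.991 to 1.008) spanned 1. The scaling factors act by moving the median of all genes, from 0.13 to -0.06 with TMM. Leaving out high Scrublet scores or cells over 5% mitochondrial UMIs moved no summed ratio beyond its counting interval. Genes at least 1.5-fold different numbered 2, 5 and 1. They were 7, 5 and 1 with TMM, 8, 5 and 1 with median-of-ratios factors, 1, 3 and 3 without those clusters, and 2, 4 and 0 at a minimum of 20 CPM, which leaves out Ccne2. The calls changed within these counts. In DKO over KO both scaling factors lost Prim1 and gained Hells, from 3 higher and 2 lower to 2 higher and 3 lower. In DKO over WT, leaving out those clusters turned 1 lower (Ccne2) into 3 higher (Cdc45, Dscc1 and Tyms) and 0 lower. The cause was not tested.

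The planned limit of 1% was passed by 0.0804% of cells in WT, 0% in KO and 0.0250% in DKO. Shares over 0.75% were 1.501%, 0.285% and 2.05%, over 1.5% 0% in each, and over 0.4% 25.6%, 26.7% and 32.3%. At 4000 UMIs, 0.0977% of DKO cells passed 1%. WT fell to 0.0147% without those clusters and to 0.0134% without Rfc2, Mcm6 and Tipin. The share over 0.4% in WT, KO and DKO was 23.9%, 27.1% and 30.5% at 4000 UMIs and 33.8%, 27.7% and 36.1% at 8000 UMIs, where 2962 WT, 251 KO and 1257 DKO cells were too shallow to enter. It was 38.5%, 51.4% and 46.4% over 0.3%, and 16.0%, 11.6% and 20.8% over 0.5%. It was 22.3%, 23.5% and 32.3% without those clusters and 17.2%, 14.3% and 20.7% without Rfc2, Mcm6 and Tipin.

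At WT cluster shares and the 1% limit, DKO minus WT was -0.00958 points. With 0.4% the differences were -12.5 (KO minus WT), 23.3 (DKO minus KO) and 3.18 (DKO minus WT). DKO minus KO became 11.1 and 15.8 at resolutions 0.6 and 1.5 and 14.9 with at least 20 cells. DKO minus WT became 7.36 at resolution 0.6 and 7.06 with the second clustering. KO minus WT, DKO minus KO and DKO minus WT kept their sign at 0.4% under these alternatives. The 0.4% limit, its alternatives and the second clustering were chosen after seeing the data.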
